A study of Mus musculus with 24 samples.

Results

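The comparison described here is that of MERVL-KD with control mouse embryos at the 4-cell stage, in total RNA-seq. Its members were chosen by their labels, as the 2 Ctrl_4C_RNA and the 2 MERVL-KD_4C_RNA libraries, which are 4 of the 12 RNA libraries held, and by their row names, as the 55291 genes of each count file beside 1035 families of repeats. Of these genes, 19738 passed a filter on low counts and were tested. The embryos were offspring of B6D2F1 females and males, with BDF2 given as their strain, and their genome differs in part from the reference strain. In both groups zygotes from superovulated, mated females had received antisense oligonucleotides (ASOs, synthetic nucleic acids that bind a matching transcript and direct its cleavage) at 20 µM into the male pronucleus, followed by culture. The MERVL-KD zygotes received 3 ASOs against MERVL, mixed in equal parts to 20 µM, and the control zygotes a scrambled ASO. Every library pooled 30 embryos freed of the zona pellucida, labelled 2.5 days post coitum, so differences between embryos of a pool are not seen. The labels do not say whether replicates came from separate collections, and p-values measure the spread between these pools alone. In such pools, fewer cells of a kind and less RNA per cell cannot be told apart.

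MERVL is an endogenous retrovirus of the mouse whose copies are transcribed in a burst when the embryonic genome is first switched on, at the 2-cell stage, and its long terminal repeat MT2_Mm serves as a promoter for nearby host genes. By the 4-cell stage the embryo depends on its own transcription, and the first sorting of cells into inner cell mass and trophectoderm lies ahead, governed in part by cell polarity and the Hippo pathway. The transcription factor p53 is held low by MDM2 and, once stabilised by stress or DNA damage, switches on genes of cell cycle arrest, repair and cell death.

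The oligonucleotides are shown because their target letters recur inside genes that fell. They are given 5′ to 3′ as listed by the study, and each MERVL ASO pairs with the reverse complement of its sequence in the RNA.
MERVL-ASO1: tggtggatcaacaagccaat
MERVL-ASO2: catttgtctgtttaccacga
MERVL-ASO3: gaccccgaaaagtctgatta
Scramble-ASO: agcgcgggtattgaaccagg
In GRCm38 the exact target of MERVL-ASO1 occurred at 702 places and that of MERVL-ASO3 at 630, while MERVL-ASO2 had 322 places with 1 mismatch. The scrambled ASO had 1 place with up to 2 mismatches.

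The 4 libraries held from 28167085 to 34671067 counts and from 29130 to 31512 genes with a count. MERVL-int, the internal part of MERVL, took 2.07% and 1.78% of the counts in the control libraries and 0.0544% and 0.0331% in the MERVL-KD libraries, as the labels would have it. Markers of oocytes and early embryos were present in every library, with Dppa3 from 921 to 1209 CPM (counts relative to library size, for these markers the library total and for all later values the total scaled by TMM) and Zp3 from 13.0 to 20.7 CPM. The summed level of 16 cumulus and granulosa cell markers was 32.4 and 41.9 CPM in control and 54.2 and 43.3 CPM in MERVL-KD, none of the 16 being at 0 in all libraries. That of 14 markers of oviduct epithelium and blood cells was 5.51 and 6.53 CPM in control against 11.6 and 14.7 CPM in MERVL-KD, with none at 0 in all libraries. Sperm markers summed to 0.692 and 0.852 CPM in control and 1.67 and 1.12 CPM in MERVL-KD, with 2 of 10 at 0 throughout. These sums were higher in MERVL-KD in each list, and their part in the results was not tested. All 37 genes of the mitochondrial genome are listed at 0 in every library, so no value is given for them.

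In MERVL-KD embryos 525 genes were called higher (2.66% of the genes tested) and 372 lower (1.88%), where a call needed an adjusted p under 0.05 from edgeR's quasi-likelihood test and a change of at least 2-fold. Without the fold requirement 972 genes were higher (4.92%) and 1153 lower (5.84%), so the balance of the directions turned with the size of change asked for. The median log2 fold change over all tested genes was 0.03. The CPM values of the groups did not overlap in all 897 called genes, and did not overlap in 54.3% of the genes tested. Of the genes matched by symbol to GENCODE types, 3.12% of 14362 protein-coding genes were called higher and 1.76% lower. Among 2558 long noncoding genes and loci of unsettled type the shares were 1.37% higher and 3.09% lower.

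The genes with the smallest adjusted p among those called higher included membrane receptors, keratin and p53 target genes. Eda2r, which encodes a receptor of the tumour necrosis factor family, stood at 6.67 and 5.82 CPM in the control libraries and at 45.7 and 57.0 CPM in the MERVL-KD libraries. Its log2 fold change was 3.04 (standard error 0.18, adjusted p = 1.85e-06). Perp, a membrane protein of desmosomes linked to cell death, stood at 3.91 and 3.04 CPM in control and at 31.6 and 34.3 CPM in MERVL-KD, which made 3.24 ± 0.20 on the log2 scale (estimate and standard error; adjusted p = 2.38e-06). Both MERVL-KD libraries lay well above both controls for either gene. Zmat3, which encodes a zinc finger protein that binds RNA, rose from 14.8 and 16.1 CPM to 60.7 and 61.5 CPM (log2 fold change 1.99). Krt8, a keratin of simple epithelia, rose from 4.39 and 5.75 CPM to 25.8 and 29.3 CPM (log2 fold change 2.45). Map3k20, a kinase of the stress response, rose from 8.04 and 12.8 CPM to 56.6 and 54.1 CPM (log2 fold change 2.41). Within each of these groups the replicates stood close beside the distance between the groups. The abundant genes rose by less. Fat1, a giant cadherin, went from 163 and 176 CPM to 411 and 500 CPM (log2 fold change 1.42), Trp53inp1, a p53-induced nuclear protein, from 142 and 165 CPM to 400 and 403 CPM (1.39), and Fth1, the ferritin heavy chain that stores iron, from 77.0 CPM in both controls to 179 and 215 CPM (1.36). The other genes of this rank were Ahnak (log2 fold change 1.90), a very large scaffold protein, Rnf169 (2.36), a protein that binds ubiquitylated chromatin at DNA breaks, Gtse1 (1.61), a regulator of p53 in G2 phase, Cdkn1a (1.44), the cell cycle inhibitor p21, Pcdh1 (2.26), a protocadherin, Slc19a2 (2.12), a thiamine transporter, and Pdrg1 (1.23). Of the predicted genes called higher, Gm42047 (2.71), Gm10030 (2.73) and Gm24924 (1.24) had the smallest adjusted p. All of these stayed called under every alternative tried.

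The genes that fell with the smallest adjusted p were mostly abundant in control embryos. Parp8, of the family that attaches ADP-ribose, stood at 162 and 184 CPM in control and at 24.1 and 22.3 CPM in MERVL-KD, which made −2.90 ± 0.12 on the log2 scale (adjusted p = 1.15e-07). Socs7, of the family that restrains cytokine signals, went from 168 and 143 CPM to 26.7 and 25.9 CPM (log2 fold change −2.56, standard error 0.12, adjusted p = 3.12e-07). Csnk2a1, the catalytic alpha subunit of protein kinase CK2, went from 169 and 165 CPM to 38.8 and 37.8 CPM (log2 fold change −2.12). The remaining CK2 genes tested, 2 of them, were not called. Sin3a, the scaffold of a corepressor complex with histone deacetylases, fell from 234 and 267 CPM to 56.8 and 42.9 CPM (log2 fold change −2.33), and Gspt1, the translation release factor eRF3a, from 212 and 236 CPM to 66.9 and 57.8 CPM (−1.85). In each case the groups lay far apart beside the spread of the replicates, which in MERVL-KD was widest for Sin3a. Prpf18 (log2 fold change −3.00), a splicing factor, Tmem72 (−3.01), a membrane protein, Hbp1 (−2.74), a repressor with an HMG box, Bzw2 (−2.64), a regulator of translation initiation, and Arid4a (−2.44), a chromatin protein that binds the retinoblastoma protein, fell as well. Yeats4 (−2.37), a reader of acylated histones, Anapc10 (−2.28), a subunit of the anaphase-promoting complex, Sycp1 (−2.05), of the synaptonemal complex of meiosis, Iars (−1.74), the cytosolic isoleucyl-tRNA synthetase, and Khdc1b (−1.49), of a family of near-identical copies whose counts are uncertain, were the other genes of this rank. All of these stayed called under every alternative tried.

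**Figure D1:**
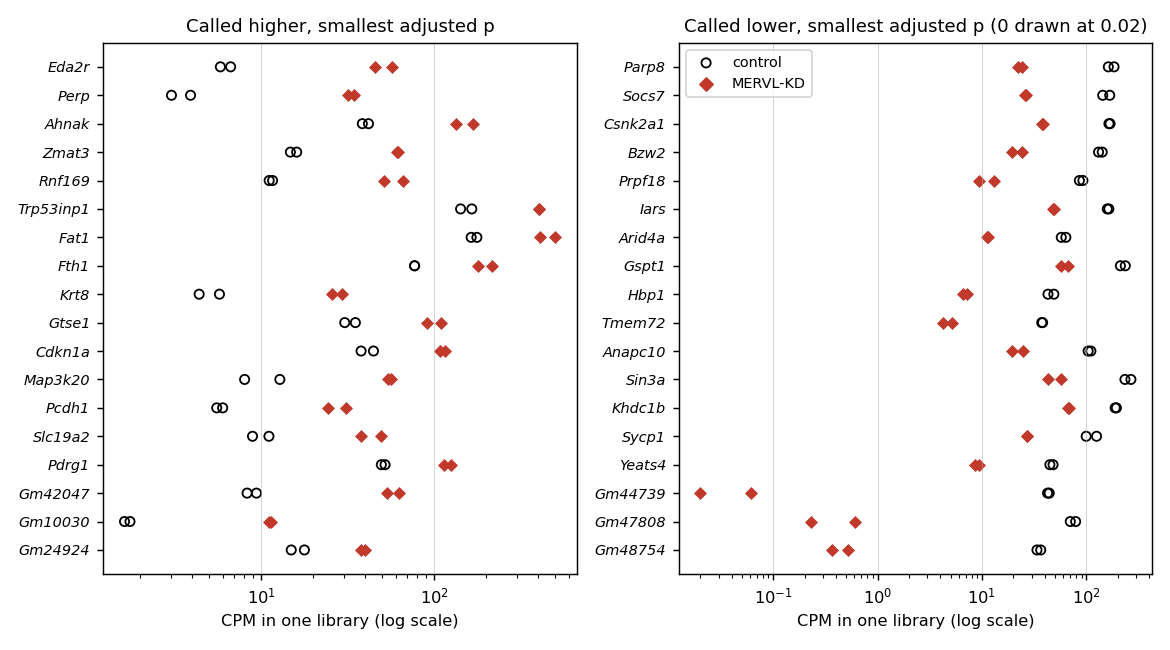
CPM in each library (log scale) of the 15 annotated and 3 predicted genes ranked first by adjusted p, per direction. Open circles are the 2 control libraries and red diamonds the 2 MERVL-KD libraries, and a count of 0 is drawn at 0.02 CPM. The groups do not overlap for any gene shown, with Eda2r at 5.82 to 6.67 CPM in control and 45.7 to 57.0 CPM in MERVL-KD.

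The predicted genes Gm44739, Gm47808 and Gm48754 lost nearly all their reads. Gm44739 held 1487 and 1176 counts in the control libraries and 0 and 2 in the MERVL-KD libraries, which makes it at least 487-fold lower, with a floor of 3 counts per library. Gm47808 went from 2367 and 2185 counts to 8 and 20 (log2 fold change −7.47), and Gm48754 from 1233 and 931 counts to 18 and 12 (−6.29). Their bodies hold the target letters of the MERVL ASOs, in an exon of Gm44739 and Gm47808 and in an intron of Gm48754.

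A site of a MERVL ASO was defined as its target with up to 2 mismatches in the transcribed strand of the gene body. It was present in 60 of the 372 genes called lower (16.1%), in 86 of 18841 genes not called (0.456%) and in 1 of 525 genes called higher (0.19%). Of these 60 genes, 8 had a site in an exon and 52 in introns alone. On the opposite strand the shares were 2.42%, 0.626% and 0.381%. With up to 4 mismatches, sites were present in 24.7% of the genes called lower, 4.6% of those not called and 2.1% of those called higher, and for the scrambled ASO in 1.08%, 0.488% and 0.19%. With exact matches alone the share was 15.1% of the genes called lower. Genes called lower had longer bodies, with a median of 24748 bases against 15842 for genes not called and 15151 for genes called higher. Among genes called lower without such a site were Parp8, Socs7, Bzw2, Gspt1, Hbp1, Anapc10, Sin3a, Sycp1, Khdc1b and Yeats4. Tmem72 held sites on the opposite strand alone. Repeat annotation was not used here, so the sites are not assigned to MERVL copies, and whether an ASO acted on these transcripts was not tested.

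The 8 tested genes with a site in an exon were called lower: Gm38947, Gm43025, Gm44660, Gm44739, Gm47808, Gm47924, Gm48271 and Gm49858. Their MERVL-KD libraries held from 0 to 20 counts against 17 to 2367 in the controls. With so few counts in MERVL-KD they passed the filter on low counts through the control libraries, which favoured a call, so their share is not set against that of other genes. Gm43025 held 184 and 74 counts in control and 0 in both MERVL-KD libraries, at least 45.7-fold lower. Another 139 tested genes had sites in introns alone. Their median log2 fold change was −0.91, 52 of them were called lower (37.4%) and 1, Clec10a, higher. The genes called lower held 130 sites in all, 116 in introns and 14 in exons, and 21 of these genes held sites of all 3 ASOs.

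Examples from genes named above are given with the letters as they stand in the transcribed strand of GRCm38, where capitals mark a mismatch to the ASO target.
Csnk2a1, intron, chr2:152263922-152263941, plus strand, MERVL-ASO1: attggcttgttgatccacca
Csnk2a1, intron, chr2:152265495-152265514, plus strand, MERVL-ASO2: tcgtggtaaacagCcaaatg
Csnk2a1, intron, chr2:152265747-152265766, plus strand, MERVL-ASO3: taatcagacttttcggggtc
Iars, intron, chr13:49694355-49694374, plus strand, MERVL-ASO1: attggcttgttgatccCcca
Prpf18, intron, chr2:4642663-4642682, minus strand, MERVL-ASO1: attgActtgttgatccacca
Csnk2a1 holds the targets of the 3 ASOs within one intron stretch, and Iars also holds an exact target of MERVL-ASO3 in an intron. Arid4a holds sites of all 3 ASOs in introns and Snapc3 sites of MERVL-ASO1 and MERVL-ASO2.

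**Figure D2:**
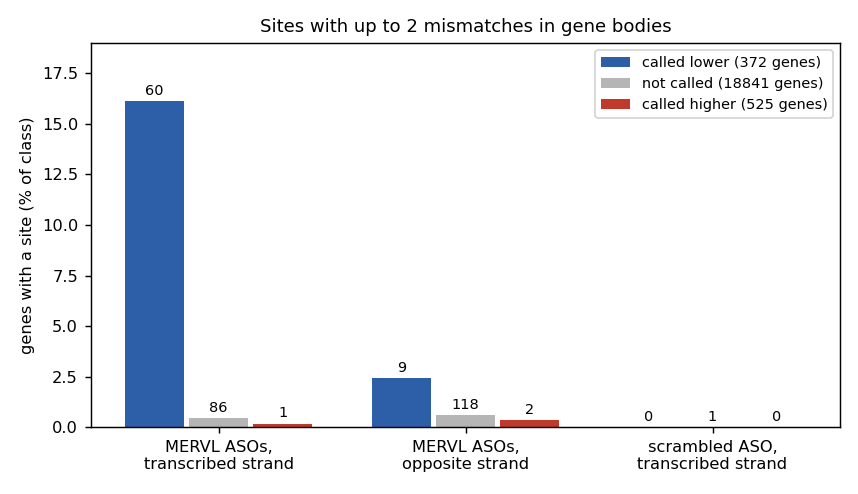
Share of genes, in percent, with an ASO target of up to 2 mismatches in the gene body, by call at the 4-cell stage, for MERVL ASOs on the transcribed strand and on the opposite strand and for the scrambled ASO. Numbers above bars are genes with a site. The share is 16.1% among the 372 genes called lower and 0.456% among the 18841 genes not called. The genes called lower with a site on the transcribed strand include 8 with a site in an exon, whose call the filter favoured.

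The members of 42 lists of genes by function were then examined, each by its counts of calls and its median. Over all tested genes 2.66% were called higher and 1.88% lower, and the median was 0.03. The 3 lists of p53 targets held the largest shares of genes called higher. All lists were written with earlier results of these data known, which can favour such a ranking. Among targets that act in cell death, 9 of 16 tested were called higher (56.2%) and none lower, with a median log2 fold change of 1.03. Beside Perp, Eda2r, Zmat3 and Trp53inp1 these were, named after their values were seen, Phlda3 (log2 fold change 2.52), an inhibitor of AKT signalling, the BH3-only death factors Pmaip1 (2.37), Bbc3 (1.85) and Bcl2l11 (1.04), and the death receptor Tnfrsf10b (1.01). Bbc3, which encodes PUMA, stood at 6.14 and 8.06 CPM in control and at 24.7 and 26.5 CPM in MERVL-KD. Bax, the pore former that such factors act on, had a log2 fold change of 0.29 and was not called. Fas, with 0 and 1 counts in control and 12 and 4 in MERVL-KD, was not tested. The calls of Bcl2l11 (0.91 without control replicate 2 and 0.86 without MERVL-KD replicate 1) and Tnfrsf10b (0.91 without control replicate 2 and 0.96 without MERVL-KD replicate 2) rested on those libraries.

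Of 19 p53 targets in arrest and feedback, 8 were called higher (42.1%, beside 2.66% of all tested genes) and none lower, with a median of 0.68. Cdkn1a, which encodes p21, an inhibitor of cyclin-dependent kinases, stood at 37.8 and 44.6 CPM in control and at 107 and 116 CPM in MERVL-KD. Its log2 fold change was 1.44 (standard error 0.12, adjusted p = 2.10e-05). Ccng1, a cyclin that feeds back on p53, stood at 22.2 and 37.2 CPM in control and at 249 and 229 CPM in MERVL-KD (log2 fold change 3.01, standard error 0.22, adjusted p = 0.000136). The groups lay far apart, yet the call was lost without MERVL-KD replicate 1 (2.94, adjusted p = 0.14) and without MERVL-KD replicate 2 (3.07, adjusted p = 0.24). Cdkn1c, the related inhibitor p57 and an imprinted gene, rose from 1.36 and 0.72 CPM to 12.1 and 9.22 CPM (log2 fold change 3.33). It is counted both in this list and in that of imprinted genes. Named after their values were seen, Btg2 (3.32), an antiproliferative cofactor, Plk2 (2.84), a polo-like kinase, Psrc1 (1.70) and the phosphatase Ppm1d (1.14) were called as well. Without MERVL-KD replicate 1 the log2 fold changes of Btg2 and Plk2 were 3.65 and 3.04, without MERVL-KD replicate 2 they were 2.89 and 2.60, and neither was called, nor was either with genes of at least 10 counts in every library (3.34 and 2.85) or of at least 1 count in all (3.31 and 2.83). Ppm1d was at 0.98 without MERVL-KD replicate 2. In all, 5 of the list were called higher without MERVL-KD replicate 1 and 4 without MERVL-KD replicate 2. Mdm2, the ligase that degrades p53, had a log2 fold change of 0.32 and was not called.

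Among p53 targets of repair and metabolism, 5 of 18 were called higher (27.8%) and 1 lower (5.56%), with a median of 0.77. Over all tested genes those shares were 2.66% and 1.88%. Polk, a polymerase that copies past damaged bases, rose from 14.8 CPM in both controls to 37.5 and 42.9 CPM (log2 fold change 1.44). Lpin1, a phosphatidate phosphatase, rose from 5.04 and 3.04 CPM to 19.6 and 29.1 CPM (2.58), Ercc5, a nuclease of nucleotide excision repair, by 1.29 and Dcxr, a reductase of xylulose, by 2.67 on the log2 scale. Ephx1, an epoxide hydrolase named after its value was seen, had a log2 fold change of 2.47. Ddb2, which recognises ultraviolet damage, fell from 5.52 and 7.27 CPM to 3.00 and 3.24 CPM (−1.03), a call that was lost with library size alone (−0.97), with the replicate number as a block (−1.02) and without control replicate 2 (−0.83), MERVL-KD replicate 1 (−0.98) or MERVL-KD replicate 2 (−1.09). Trp53, which encodes p53, stood at 27.1 and 23.1 CPM in control and at 15.9 and 16.9 CPM in MERVL-KD, a log2 fold change of −0.61 that was under 2-fold (adjusted p = 0.0357).

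**Figure D3:**
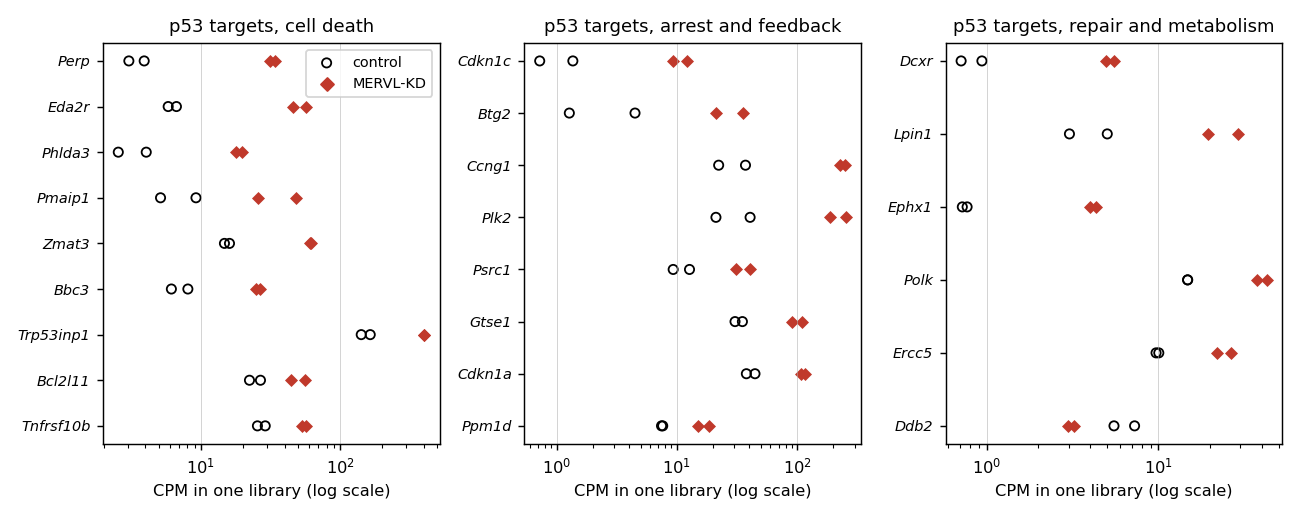
CPM in each library (log scale) of the called members of the 3 lists of p53 targets. Open circles are the 2 control and red diamonds the 2 MERVL-KD libraries. For all genes but Ddb2 the MERVL-KD libraries lie above the controls, as for Ccng1 with 22.2 and 37.2 CPM in control against 249 and 229 CPM in MERVL-KD.

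The promoter of Cdkn1a is shown as one in which a pair of p53 half-site cores lies close to the annotated start. It is the RefSeq window of GRCm38.p6 from 250 bases before to 50 bases after the start, chr17:29090729-29091028, plus strand, with the match in capitals of CATG followed by 6 bases of any kind and CATG.
Cdkn1a: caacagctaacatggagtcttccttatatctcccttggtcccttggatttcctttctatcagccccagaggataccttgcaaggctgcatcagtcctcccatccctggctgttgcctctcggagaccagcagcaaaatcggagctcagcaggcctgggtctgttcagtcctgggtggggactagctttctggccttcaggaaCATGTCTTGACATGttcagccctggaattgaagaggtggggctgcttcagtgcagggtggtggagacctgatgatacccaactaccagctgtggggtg
This pattern, which reads alike on both strands, was in the window of 1 of the 16 called p53 targets with a promoter in the table, of 3 of 364 genes called higher (0.824%), of 3 of 206 called lower (1.46%), of 44 of 12400 tested genes with a promoter in the table (0.355%) and of 0.77% of all 27025 promoters. These letters are a description and no measure of binding.

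Genes that sense DNA damage and copy DNA were mostly not called, where 2.66% of all tested genes were called higher and 1.88% lower. None of the 21 genes of damage signalling was called higher, 1 was called lower (4.76%), and the median was −0.26. At an adjusted p under 0.05 without the fold requirement 6 were lower and none higher. Over all tested genes those shares were 5.84% lower and 4.92% higher. Atr, the kinase that answers to stalled replication, stood at 27.4 and 30.5 CPM in control and at 14.5 and 14.0 CPM in MERVL-KD (log2 fold change −1.02), but was at −0.96 with library size alone and at −0.95 without control replicate 2. None of 43 genes of the replication machinery was called (median −0.20), and without the fold requirement 3 were lower and none higher. Among 34 cyclins and mitotic regulators, Ccne2, the E-type cyclin that drives entry into S phase, rose from 14.3 and 13.1 CPM to 29.0 and 30.9 CPM (1.13), and Ccnd2, a D-type cyclin, from 0.95 and 0.83 CPM to 5.50 and 4.95 CPM (2.54). In that list 9 genes were lower and 2 higher at an adjusted p under 0.05 without the fold requirement, with a median of −0.14. Rad21, the cleavable subunit of cohesin, was the 1 called gene of 37 for cohesin, condensin and kinetochores. It fell from 1041 and 1116 CPM to 497 and 430 CPM (−1.22, adjusted p = 1.12e-05). Without the fold requirement 7 genes of those 37 were lower and none higher. In the core apoptosis list outside p53 targets, 1 of 22 was called in each direction. Bmf, a BH3-only factor, was higher (1.14) and Bad, another, lower (−1.02). Bmf was not called in one fit of the 12 libraries (1.14), without control replicate 1 (0.99), or without MERVL-KD replicate 1 (1.13) or 2 (1.15), nor was Bad with library size alone (−0.96) or without control replicate 2 (−0.93).

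Calls among genes of transcription and protein synthesis stand beside shares of 2.66% higher and 1.88% lower over all tested genes. Of 44 genes of ribosome biogenesis and RNA polymerase I none was called, although 13 were lower and 1 higher at an adjusted p under 0.05 (median −0.25). Of 46 genes of RNA polymerase II, Mediator and snRNA transcription, 12 were lower at that threshold and 1 was called, Snapc3, a subunit of the complex that starts snRNA genes, which fell from 62.0 and 77.8 CPM to 28.8 and 27.1 CPM (−1.32). Of 24 cytosolic aminoacyl-tRNA synthetases 2 were called lower (8.33%). Iars fell from 164 and 159 CPM to 48.9 and 47.5 CPM, and Lars, the leucyl enzyme, from 51.3 and 44.0 CPM to 20.8 and 18.7 CPM (−1.27). The 91 tested cytosolic ribosomal proteins had no call and a median of 0.06. The lists of translation factors, splicing, the proteasome, amino acid and ER stress, and lysosome and autophagy had no call either, with medians from −0.09 to 0.08.

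Metabolic genes were called singly, where 2.66% of all tested genes were called higher and 1.88% lower. Of 33 genes of cholesterol and fatty acid synthesis the desaturases Fads1 (log2 fold change 1.81) and Scd2 (1.09) were called higher (6.06%), with a median of 0.39. Of 27 genes of glutathione and oxidative stress, Hmox1 (1.31), which breaks down haem, and Gss (1.34), glutathione synthetase, were higher (7.41%, median 0.36). Pkm, pyruvate kinase, was higher (1.06) and Ogdh, of the 2-oxoglutarate dehydrogenase complex, lower (−1.25) among 44 genes of glycolysis, pyruvate and the TCA cycle. Each was 2.27% of that list. Sdhb, a subunit of succinate dehydrogenase, was lower (−1.21) among 77 nuclear genes of oxidative phosphorylation (1.3%, median 0.05). Scd2 (0.83), Hmox1 (0.85), Gss (1.18) and Pkm (0.94) lost their calls without control replicate 1, Hmox1 (1.13), Pkm (0.99) and Sdhb (−0.86) without MERVL-KD replicate 2 and Gss (1.17) without MERVL-KD replicate 1. Without control replicate 2, 5 genes of cholesterol and fatty acid synthesis were called higher, and 5 of glycolysis, pyruvate and the TCA cycle higher and 2 lower. Of 27 heat shock proteins and chaperones, Hspa2, a testis-rich HSP70, rose from 3.68 and 8.21 CPM to 34.3 and 41.6 CPM (2.69), beside the stress-induced Hspa1a (1.73) and Hspa1b (1.22), near-identical copies whose counts are uncertain. Of that list 11.1% were called higher and none lower, and its median was −0.06. Hspa2 was not called without MERVL-KD replicate 1 (2.81, adjusted p = 0.053) or 2 (2.54, adjusted p = 0.064), nor Hspa1a without MERVL-KD replicate 1 (1.39).

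Genes of the trophectoderm and the Hippo pathway were called in both directions, 6 higher (17.6%) and 2 lower (5.88%) of 34 tested (median 0.17). Over all tested genes those shares were 2.66% and 1.88%. Beside Krt8, the genes called higher were its partner keratin Krt18 (log2 fold change 1.41) and Id2 (1.94), an inhibitor of helix-loop-helix factors, both named after their values were seen, the epithelial factor Elf3 (2.31), and the angiomotins Amot (1.09) and Amotl1 (1.29), which hold YAP outside the nucleus. Lats2, the kinase that phosphorylates YAP, fell from 24.7 and 17.4 CPM to 5.59 and 8.43 CPM (−1.59), and Ccn2, a classical target of YAP and TEAD, from 7.35 and 5.89 CPM to 3.46 and 1.65 CPM (−1.37). Cdx2, the defining factor of trophectoderm, had a log2 fold change of 0.29 and was not called. Amot was at 0.97 without control replicate 2 and at 0.75 without MERVL-KD replicate 1, Amotl1 at 0.90 without MERVL-KD replicate 2, and Ccn2 lost its call without control replicate 1 (−1.21), without MERVL-KD replicate 2 (−0.94) and with library size alone (−1.30). Without control replicate 2, 4 genes of the list were called lower.

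Of 40 genes of adhesion, junctions and polarity 4 were called higher (10%, beside 2.66% of all tested genes) and none lower (median 0.17). Atp1b1, a subunit of the sodium pump that builds the blastocoel, rose from 5.60 and 4.70 CPM to 19.9 and 17.6 CPM (1.86). Jup, plakoglobin of desmosomes, had a log2 fold change of 1.17, Msn, the actin linker moesin, of 1.57 and Dsg2, a desmosomal cadherin, of 1.83. Dsg2 lost its call under DESeq2 (1.83, adjusted p = 0.063), in one fit of the 12 libraries (1.83), in a non-robust fit (1.83), with the replicate number as a block (1.85), and without control replicate 2 (1.54), MERVL-KD replicate 1 (1.94) or MERVL-KD replicate 2 (1.71). Of 29 tested pluripotency and inner cell mass factors 1 was called higher (3.45%) and none lower. Pdgfra, the receptor that later marks primitive endoderm, rose from 7.92 and 8.90 CPM to 22.9 and 30.7 CPM (1.67). Pou5f1 (−0.11), Nanog (−0.42) and Sox2 (1.86, from a mean of 0.304 to 1.13 CPM) were not called.

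**Figure D4:**
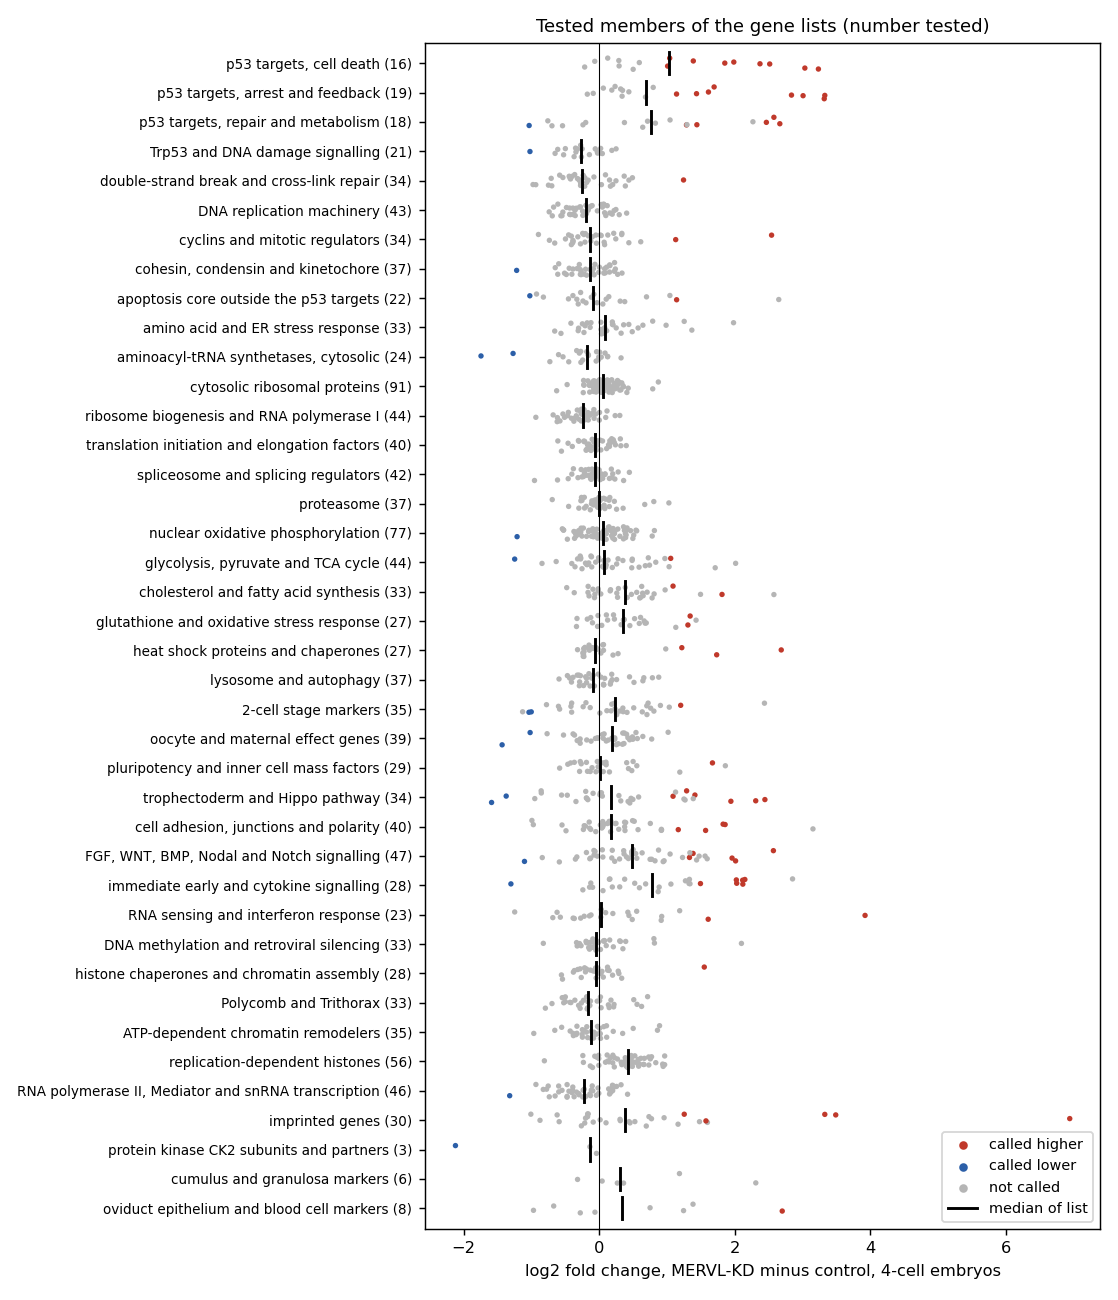
Log2 fold change, MERVL-KD minus control, of the tested members of each gene list at the 4-cell stage, with the number tested in parentheses. Each point is a gene, red where called higher, blue where called lower and grey where not called, and the black bar is the list's median. The lists of p53 targets have medians of 1.03, 0.68 and 0.77, and most other lists lie near the median of all genes, 0.03.

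Signalling genes were called mostly higher. Of 28 tested immediate early and cytokine genes 6 were called higher (21.4%) and 1 lower (3.57%). The list median was 0.78, and over all tested genes 2.66% were called higher and 1.88% lower. The early response genes Ier2 rose from 3.62 and 4.34 CPM to 17.5 and 17.1 CPM (2.12), Ier5 from 2.31 and 1.88 CPM to 6.91 and 11.8 CPM (2.15) and Jun, a subunit of AP-1, from 1.48 and 1.45 CPM to 5.88 and 6.87 CPM (2.12). The cytokine Lif rose from 3.94 and 4.05 CPM to 16.9 and 15.6 CPM (2.02, adjusted p = 0.000126) and its receptor Lifr from 1.63 and 2.02 CPM to 7.40 and 7.51 CPM (2.03). Il6st, which encodes gp130, the signalling partner of that receptor, fell from 21.7 and 20.0 CPM to 8.70 and 8.18 CPM (−1.30). Ligand, receptor and partner thus differed in direction. Mycn, named after its value was seen, was called (1.49), though not without MERVL-KD replicate 2 (1.04).

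Of 47 tested genes of FGF, WNT, BMP, Nodal and Notch signalling 5 were called higher (10.6%) and 1 lower (2.13%). The list median was 0.48, and over all tested genes 2.66% were called higher and 1.88% lower. Dusp6, a phosphatase that restrains ERK, rose from 3.47 and 5.89 CPM to 14.9 and 22.7 CPM (2.01), and its relative Dusp4 from 2.34 and 3.11 CPM to 7.26 and 6.96 CPM (1.39). Spry4, another restraint on FGF signals, fell from 68.1 and 56.7 CPM to 27.0 and 31.2 CPM (−1.10). The receptor Notch1 rose from 8.30 and 9.11 CPM to 26.1 and 17.8 CPM (1.33). The ligand Bmp4 was called (2.57) from 0.36 and 0.72 CPM in control and 1.50 and 4.88 CPM in MERVL-KD, and Tcf7l1, a WNT repressor named after its value was seen, likewise (1.96). Bmp4 was not called without MERVL-KD replicate 2 (1.48), Tcf7l1 not without control replicate 2 (1.83) or MERVL-KD replicate 1 (1.63), and Spry4 was at −0.97 without control replicate 1.

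Sting1, the adaptor of cytosolic DNA sensing, showed the largest rise of the list for RNA sensing and interferon, from 12 and 15 counts to 220 and 238 counts (0.36 and 0.54 CPM to 6.34 and 7.27 CPM). Its log2 fold change was 3.92 (standard error 0.39, adjusted p = 8.18e-05). Irf1, an interferon regulatory factor, was called too (1.61), but not without control replicate 2 (1.47), MERVL-KD replicate 1 (1.56) or MERVL-KD replicate 2 (1.65). Of the 23 tested genes of the list these 2 were called higher (8.7%, beside 2.66% of all tested genes) and none lower. The other 21 were not called (list median 0.03). The filter was not passed by 15 of its 38 genes. Among them were Ifnb1 at 0 counts in every 4-cell library and Isg15, Ifit1 and Mx1 at 16 counts or fewer. Immune cells also express Sting1. Of the 8 tested markers of oviduct epithelium and blood cells 1 was called (12.5%), Hba-a1 (2.70), though not without MERVL-KD replicate 2 (2.08). It stood at 0.33 and 1.48 CPM in control and at 3.77 and 7.78 CPM in MERVL-KD. Hba-a1 is an alpha globin with a near-identical copy, so its counts are uncertain. In that list 4 tested genes had log2 fold changes above 0 and 4 below. Hbb-bs, another globin, was not tested, with 0 and 2 counts in control and 0 in both MERVL-KD libraries. The part of blood cell RNA in these values was not tested. None of the 6 tested cumulus markers was called.

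Of 30 tested imprinted genes 5 were called higher (16.7%, beside 2.66% of all tested genes) and none lower (median 0.38). Beside Cdkn1c these were the noncoding Rian (log2 fold change 1.58), the zinc finger factor Plagl1 (1.26), Dio3 (3.49), which inactivates thyroid hormone, and Tnfrsf23, a decoy receptor named after its value was seen. Rian stood at 2.31 and 2.35 CPM in control and at 7.23 and 6.69 CPM in MERVL-KD. Dio3 held 6 counts in each control library and 44 and 106 in MERVL-KD. Dio3 and Tnfrsf23 passed the filter on low counts through the MERVL-KD libraries, which favoured a call and raised the list's share. Tnfrsf23 had 0 counts in both controls and 16 in both MERVL-KD libraries, at least 4.81-fold higher by the floor of 3 counts, and lost its call whichever library was left out (6.90 to 7.01) and with the replicate number as a block (6.94). Plagl1 was not called without control replicate 2 (1.10) or MERVL-KD replicate 1 (1.11), nor Dio3 without MERVL-KD replicate 2 (2.66). The list had 8 genes called higher without control replicate 2 and 3 without either MERVL-KD replicate.

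Chromatin lists held a single call, where 2.66% of all tested genes were called higher and 1.88% lower. H1f10, a linker histone, rose from 2.19 and 2.60 CPM to 5.91 and 8.15 CPM (1.55) among 28 histone chaperones and assembly genes (3.57%). None of 56 tested replication-dependent histone genes was called, but 15 were higher and none lower at an adjusted p under 0.05 without the fold requirement (median 0.42), and without control replicate 2, 3 were called higher. Many histone genes lie in clusters of near-identical copies, whose counts are uncertain. The lists of DNA methylation and retroviral silencing, Polycomb and Trithorax, and ATP-dependent remodelers had no call (medians −0.05, −0.16 and −0.12).

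Markers of the preceding stages are set beside all tested genes, of which 2.66% were called higher and 1.88% lower. Of 35 tested markers of the 2-cell stage 1 was called higher (2.86%), Zfp750 (1.20), and 2 lower (5.71%), Sp110 and Zfp352. Sp110 went from 1412 and 1500 CPM to 693 and 760 CPM. Although listed as a 2-cell marker, Sp110 rose with stage in the controls, in one fit of the 12 libraries. There it was at 1056 and 1177 CPM in 2-cell, 1351 and 1441 CPM in 4-cell and 1674 and 1772 CPM in 8-cell controls. Zfp352 fell from 235 and 186 CPM in 2-cell to 10.3 and 12.9 CPM in 4-cell controls. Without control replicate 1 the list had 4 genes called higher and 2 lower, and without control replicate 2 none in either direction. The list's median was 0.23, and −0.0012 over the same members without MERVL-KD replicate 1. Of 39 tested oocyte and maternal effect genes the near-identical Omt2a (−1.02) and Omt2b (−1.43), whose counts are uncertain, were called lower (5.13%) and none higher. The median of that list was 0.19. Omt2b fell from 33.9 and 31.6 CPM to 12.5 and 11.7 CPM. Zfp750 was not called without control replicate 2 (1.07) or MERVL-KD replicate 1 (1.03). Sp110 was short of 2-fold without control replicate 2 (−0.97) or MERVL-KD replicate 1 (−0.94), and Omt2a without MERVL-KD replicate 1 (−0.70) and, narrowly, without control replicate 1. Zfp352 was not called without control replicate 2 (−0.88) or MERVL-KD replicate 2 (−0.72). Zfp352 was not called in one fit of the 12 libraries (−1.04). With library size alone Sp110 (−0.94), Zfp352 (−0.97) and Omt2a (−0.97) were not called.

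Whether an effect at the 4-cell stage differed from that at another stage was tested as an interaction in one fit of the 12 libraries. Against the 2-cell stage the effect was more positive for 305 genes (1.27% of 24040) and more negative for 247 (1.03%). Against the 8-cell stage it was more positive for 67 genes (0.279%) and more negative for 34 (0.141%), 101 genes in all, which became 187 without MERVL-KD replicate 1 and 67 without MERVL-KD replicate 2. Both tests share the 4-cell libraries. Of the 525 genes called higher at the 4-cell stage, 106 had a more positive effect there than at the 2-cell stage, 45 than at the 8-cell stage and 27 than at both. Of the 372 called lower, the effect was more negative than at the 2-cell stage for 89, than at the 8-cell stage for 18 and than at both for 7. These genes were called on the same 4-cell values, so a larger effect at that stage was favoured by the choice.

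Perp went from a log2 fold change of −0.71 in 2-cell embryos to 3.23 in 4-cell and 0.67 in 8-cell embryos. Both differences passed the test (3.94, adjusted p = 9.81e-06, and 2.56, adjusted p = 0.00106). Its 2-cell effect rests on low values, 0.67 and 0.61 CPM in control and 0.38 and 0.40 CPM in MERVL-KD. Krt8 had 0.55, 2.44 and 0.11 at the successive stages (differences 1.89, adjusted p = 0.00195, and 2.33, adjusted p = 0.00184). Ccne2 had −0.25, 1.12 and −0.21 and likewise passed both tests. The rises of these genes were thus larger at the 4-cell stage than at either other stage, where the 8-cell pools carry the same age label, 2.5 days, as the 4-cell pools and the 2-cell pools 1.5 days. Rnf169 (difference from the 2-cell stage 2.09), Map3k20 (2.40), Hspa2 (3.08), Lifr (2.23), Atp1b1 (1.58) and Ppm1d (1.85) were more positive than at the 2-cell stage, while their differences from the 8-cell stage did not pass the test. Cdkn1c was more positive than at the 8-cell stage (2.60, adjusted p = 0.00549). Ier5 had 0.17, 2.14 and −1.27 and was more positive than at the 8-cell stage (3.41), while its difference from the 2-cell stage (1.98) was not called without MERVL-KD replicate 2 (1.43). Of the arrest targets 5 were more positive and 2 more negative than at the 2-cell stage, and 3 were more positive than at the 8-cell stage. Gtse1 differed from the 2-cell stage by 1.95 and from the 8-cell stage by 1.06, the latter under 2-fold without control replicate 1 (0.95) or MERVL-KD replicate 2 (0.88). Ccng1 differed by 1.16 and 1.12, the former at 0.83 without control replicate 1 and the latter not called without control replicate 1 (0.79), MERVL-KD replicate 1 (1.06) or MERVL-KD replicate 2 (1.15). The differences of Eda2r, Zmat3 and Polk between stages did not pass these tests. Eda2r had 3.29, 3.03 and 2.15, Zmat3 1.66, 1.98 and 1.10, and Polk 1.18, 1.44 and 0.72. Cdkn1a had 1.46, 1.43 and 0.44, with a difference of 0.99 from the 8-cell stage that was under 2-fold. The list medians for death, arrest and repair targets in this fit were 0.61, 0.22 and 0.14 in 2-cell, 1.02, 0.68 and 0.77 in 4-cell and 0.35, 0.44 and 0.34 in 8-cell embryos.

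Among genes that fell, the effect on Sin3a was −0.32, −2.34 and −1.67 at the successive stages, with a difference of −2.02 between the 4-cell and 2-cell stages (adjusted p = 3.84e-07). Prpf18 (difference −2.44), Cox10 (−2.21), which assembles cytochrome oxidase, Csnk2a1 (−1.64), Yeats4 (−1.62), Cdr2 (−1.49), Il6st (−1.24), Spry4 (−1.22) and Omt2b (−1.19) also fell further than at the 2-cell stage. Csnk2a1 had −0.49, −2.13 and −2.37, and its difference between the 4-cell and 8-cell stages was 0.25 (standard error 0.14). Iars had −1.14, −1.75 and −2.77, with a smaller fall than at the 8-cell stage (1.02, adjusted p = 0.00184), though the difference fell just short of 2-fold without control replicate 2. Parp8 (−3.11, −2.91 and −1.42), Hbp1 (−2.57, −2.75 and −1.48) and Bzw2 (−2.46, −2.65 and −1.51) fell further at the 4-cell than at the 8-cell stage and not detectably more than at the 2-cell stage. Socs7 differed from the 8-cell stage by −1.01, and by −0.90 without control replicate 1. Of the 139 genes with an ASO site in introns alone, whatever their call, the median log2 fold change was −0.61, −0.91 and −0.70 at the 3 stages, and 18 (12.9%) had a more negative effect at the 4-cell than at the 2-cell stage, against 1.15% of 19591 genes without a site.

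**Figure D5:**
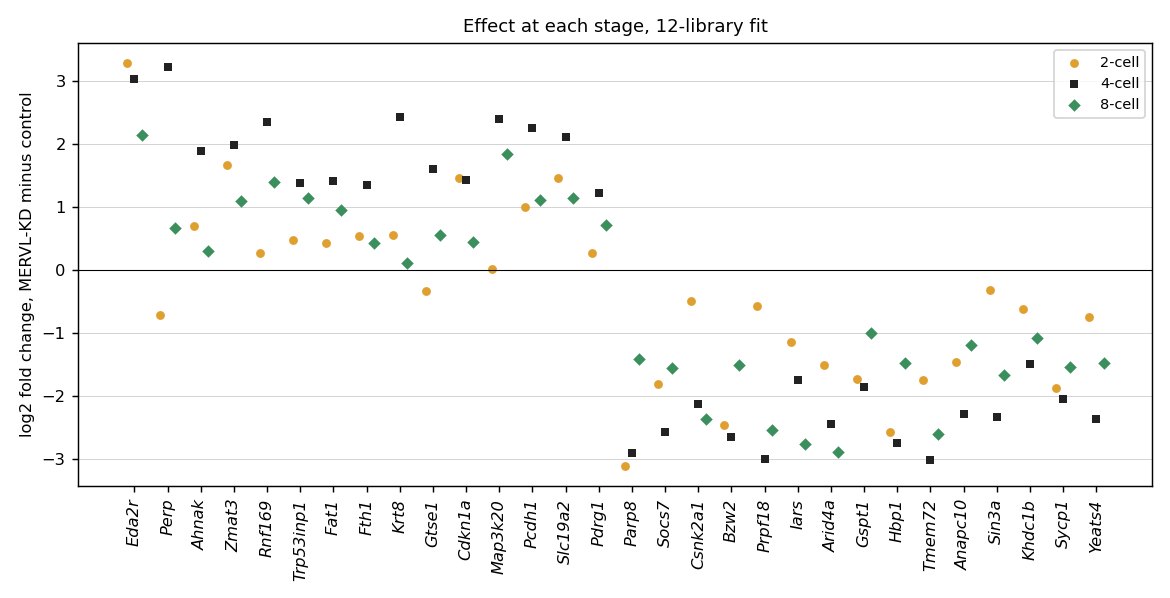
Log2 fold change, MERVL-KD minus control, at the 2-cell (circles), 4-cell (squares) and 8-cell stage (diamonds) for the 15 annotated genes per direction with the smallest adjusted p at the 4-cell stage, from one fit of the 12 libraries. Perp goes from −0.71, where it is below 1 CPM in every 2-cell library, to 3.23 and 0.67, and Sin3a from −0.32 to −2.34 and −1.67. Eda2r lies at 3.29, 3.03 and 2.15.

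Other genes with a difference between stages included Endod1, an endonuclease-domain protein, which was at −1.74 in 2-cell, 0.98 in 4-cell (not called) and −0.70 in 8-cell embryos, and differed from both others (2.72 and 1.68). Of the list for RNA sensing and interferon, Trim25, a ubiquitin ligase of the RIG-I pathway named after its value was seen, went from 1.05 at the 2-cell to −0.39 at the 4-cell stage (difference −1.44, adjusted p = 0.000138). Sting1 was more positive than at the 8-cell stage, where its log2 fold change was −0.35 (difference 4.27). The difference did not pass the test without control replicate 1 (3.98) or MERVL-KD replicate 2 (4.13). In 8-cell embryos Sting1 was low, at 0.18 and 0.34 CPM in control and 0.17 and 0.23 CPM in MERVL-KD. Among the histone genes, H1f5 (1.24, and 0.94 with library size alone), H2bc13 (1.48) and H2bc9 (1.78), named after their values were seen, had more positive effects than at the 2-cell stage.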

How the data were processed

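Stranded total RNA-seq libraries with ribosomal fragments depleted had been made from pools of embryos. The authors aligned the reads to GRCm38 (STAR 2.5.3a), and what they deposited are raw counts, not normalized, of uniquely placed reads by featureCounts over GENCODE genes and RepeatMasker families. Unique alignment loses reads of near-identical genes. Even values made up 71.8% to 74.5% of low counts, so both mates of a pair seem to be counted, though the setting is not given in the sources used here.

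Log2 fold changes, standard errors and Benjamini-Hochberg adjusted p-values over genes and repeat families came from edgeR 4.0.16 (filterByExpr, TMM, robust quasi-likelihood test) in R 4.3.3. Replicates differed by more than sampling noise (chi-square per degree of freedom 12.2 and 17.4). The fits were tested on simulated data. Members and lists were chosen with earlier results of these data known. Named genes are the 15 annotated and 3 predicted genes with the smallest adjusted p per direction (higher group mean of at least 2 CPM, groups not overlapping), up to 4 called members per list and direction, Trp53, MERVL-int, MT2_Mm, Csnk2a1, Iars and 5 genes per direction of each stage contrast. ASO targets were sought in GRCm38 with up to 4 mismatches. Alternatives were DESeq2 1.42.0, other scalings, filters and fits, counts halved, and each library left out. One list of repair genes is not reported here.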

Additional observations from a re-analysis of the deposited data

Results flagged for a closer look

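The effect of MERVL-KD differed between stages, by the interaction test, for each of the following genes, the 5 with the smallest adjusted p per direction and contrast. Values are differences of log2 fold changes. Against the 2-cell stage the effect at the 4-cell stage was more positive for Epm2a (2.52), Esco2 (1.52), Gtse1 (1.95), Rab7 (1.71) and Endod1 (2.72) and more negative for Sin3a (−2.02), Prpf18 (−2.44), Csnk2a1 (−1.64), Cox10 (−2.21) and Cdr2 (−1.49). For Epm2a, Esco2 and Rab7 the positive difference stands for a weaker fall, with log2 fold changes of −4.26, −1.91 and −1.87 at the 2-cell stage and −1.74, −0.39 and −0.16 at the 4-cell stage. Against the 8-cell stage it was more positive for Perp (2.56), Cpm (2.25), Iars (1.02), Ier5 (3.41) and Ier5l (1.76) and more negative for Socs7 (−1.01), Bbx (−1.08), Mbd5 (−1.15), Arhgap20os (−1.27) and Bzw2 (−1.14). Bbx was at −0.98 without control replicate 2 and at −0.94 without MERVL-KD replicate 2, and both Socs7 (−0.90 without control replicate 1) and Iars (0.95 with library size alone) could fall short of 2-fold. Groups of 2 libraries were not searched for outlying samples.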

How the results depend on the processing

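Without the 2-fold requirement the counts rose to 972 genes higher, 1153 lower and 999 that differed between the 4-cell and 2-cell stages, against 525, 372 and 552 with it. Under the other alternatives the calls ran from 469 to 713 higher and from 307 to 499 lower. These ranges include leaving out each library, which gave 473 to 691 higher and 350 to 499 lower. Genes whose effect differed from the 8-cell stage were 101, but 270 by DESeq2, 187 without MERVL-KD replicate 1 and 67 without MERVL-KD replicate 2, and the cause was not tested. The difference from the 2-cell stage gave 450 to 608 genes with each library left out. The share of genes called lower that held an ASO site was 24.7% with up to 4 mismatches, a looser match by construction, and 17.7% with an unbroken match of 14 bases, an alternative added after the data were seen. The replicate numbers did not pair the samples (correlation of deviations 0.0154 over 14748 genes), and with them as a replicate block 469 genes were higher, 337 lower, 492 differed from the 2-cell stage and 76 from the 8-cell stage. Among single genes and counts none changed sign. Some list medians did, for example without MERVL-KD replicate 1 for 2-cell markers (−0.0012), glycolysis (−0.030) and heat shock proteins (0.018), without MERVL-KD replicate 2 for pluripotency factors (−0.066), and with library size alone for the proteasome (0.058). Of 117 called genes named or listed, 82 kept their call under 14 alternatives and 35 lost it under at least 1. Sox2 (1.86) and Cdx2 (0.29), low in all 4 libraries, had standard errors of 0.72 and 0.93.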
